A study of Homo sapiens with 45 samples.

Results

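TET1 was listed alone at 732 of its 7211 regions in DMSO, which is 10.2% of its list (95% interval 9.48 to 10.9). These regions come from a ChIP-seq study of HEK293T cells, an established human embryonic kidney line. They were chosen by the deposited peak calls themselves. A TET1 region of the DMSO list entered the set when no region of the DMSO lists of CTCF, MBD2 or MBD3 overlapped it by 1 bp or more. The other 6479 TET1 regions overlapped CTCF at 91.4%, MBD2 at 88.4% and MBD3 at 70.6% of them. The 12 lists of the series hold 53743 distinct regions in all.

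Cells received 30 µM BPK25, an electrophilic compound known to lower NuRD subunits, 0.5 mM IAA, the auxin used with degron-tagged proteins, or the solvent DMSO, each for 72 h. Chromatin was then immunoprecipitated with antibodies to CTCF, MBD2, MBD3 or TET1, with 3 libraries for each antibody and treatment and 3 input libraries for each treatment. The labels place all groups in HEK293T and describe derived edited cells in culture, without saying which libraries came from them or which protein IAA acts on. The authors called 1 list on replicates 1 to 3 together, so each value below comes from a pooled list and has no replicate error. No difference between lists or sets was tested. Intervals on shares are Wilson intervals, and intervals on medians are distribution-free. Both cover counting over regions only.

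TET1 is a dioxygenase that oxidises 5-methylcytosine to 5-hydroxymethylcytosine and further products, a step towards the loss of DNA methylation. Its CXXC domain binds CpG-rich DNA, and the protein is known from CpG-rich promoters and enhancers of embryonic stem cells. CTCF, a zinc finger protein, marks insulators and the anchors of chromatin loops, and its binding at many sites is sensitive to methylation. MBD2, which binds methylated CpG, and MBD3, which largely does not, are alternative subunits of the NuRD remodelling and deacetylase complex. Regions with TET1 alone are thus places where a peak of the oxidase was called and none of CTCF, MBD2 or MBD3. An hg19 genome and annotation were not used here, so the regions are described by position and not by sequence or gene.

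The set was at the weak end of the TET1 list. The fold enrichment of a region is the authors' ratio of pileup over local background at its summit. Its median was 2.78 (2.73 to 2.83) in the 732 regions found alone and 3.46 (3.43 to 3.48) in the 6479 other TET1 regions. A fold under 3 was given for 490 regions found alone (66.9%), against 1878 of the others (29.0%). A fold of 5 or more was given for 5 regions found alone and 540 of the others. The median −log10 q was 2.75 (2.59 to 2.90) in the regions found alone and 8.09 (7.91 to 8.25) in the others. The highest fold in the set, 6.37, ranked 121 in the whole TET1 list, and the highest −log10 q, 20.1, ranked 505. These measures come from the calls that defined the set, so they are a description.

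The pileup behind each fold was small. Whole pileups and local backgrounds, recovered from the deposited fold and p-value, were found for all 732 regions found alone and for 6441 of the others. Regions found alone had a median of 25 fragments (24 to 25) over a background of 7.73 fragments (7.37 to 8.11). The others had 41 fragments (40 to 41) over a background of 10.8 (10.7 to 10.8). The lowest pileup was 17 fragments in both sets, and the highest in regions found alone was 150. The smallest background in the list, 5.68 fragments, is called its floor here and stands for the genome-wide background level. At most 1.5 times the floor was found at 62.7% (59.1 to 66.1) of regions found alone and 28.3% (27.2 to 29.4) of the others. Over 3 times the floor lay 22 regions found alone (3.01%) and 831 of the others (12.9%).

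**Figure D1:**
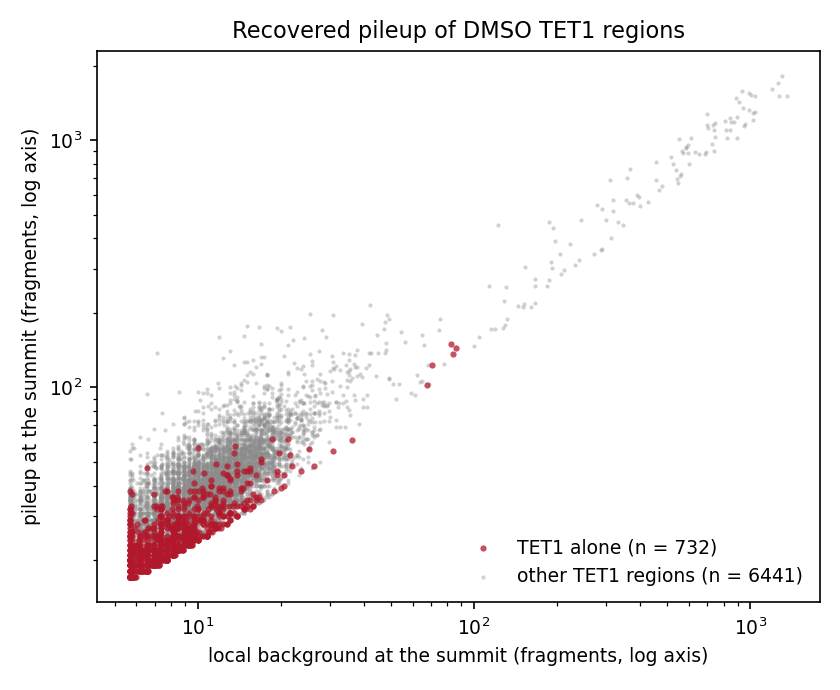
Pileup against local background at the summit of each DMSO TET1 region, both in fragments on log axes, for 732 regions found alone (red) and 6441 other regions (grey). Regions found alone lie low in the cloud, between 17 and 150 fragments, and none has a background above 85.8 fragments.

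The share of TET1 regions found alone was lower in each band of higher significance. It was 47.0% (42.7 to 51.4) among regions with a −log10 q under 2, which is 235 of 500. From 2 to 3 it was 34.8% (30.8 to 39.0), and from 3 to 5 it was 15.1% (13.2 to 17.3). It was 4.67% (3.93 to 5.53) from 5 to 10. At 10 or more, 17 of 2350 regions were found alone, or 0.723% (0.452 to 1.16). None of these intervals overlap. Even so, 143 regions found alone (19.5%) had a −log10 q of 5 or more, against 4906 of the others (75.7%).

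**Figure D2:**
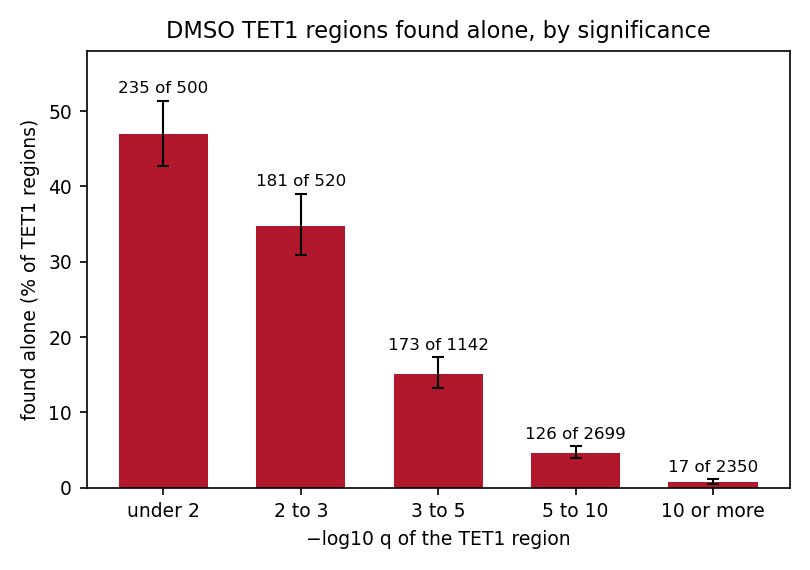
Share of DMSO TET1 regions found alone in 5 bands of −log10 q, in percent, with 95% Wilson intervals and the counts above each bar. The share is lower at each step, with 47.0% under 2 and 0.723% at 10 or more.

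Regions found alone still differed from the others at like significance, with fewer fragments over a lower background. In the band under 2, the median background was 7.70 fragments (7.34 to 8.11) for regions found alone and 9.77 (9.27 to 10.4) for the others. In the band from 5 to 10 it was 8.11 (7.40 to 8.50) for regions found alone and 10.4 (10.4 to 10.8) for the others. The intervals did not overlap in any of the 4 bands under 10. In the band of 10 or more, which holds 17 regions found alone, they did. The fold ran the other way, with a median of 3.04 (2.97 to 3.10) for regions found alone and 2.86 (2.83 to 2.89) for the others in the band from 3 to 5. At a fixed significance a lower background requires a higher fold, so these are not independent measures.

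**Figure D3:**
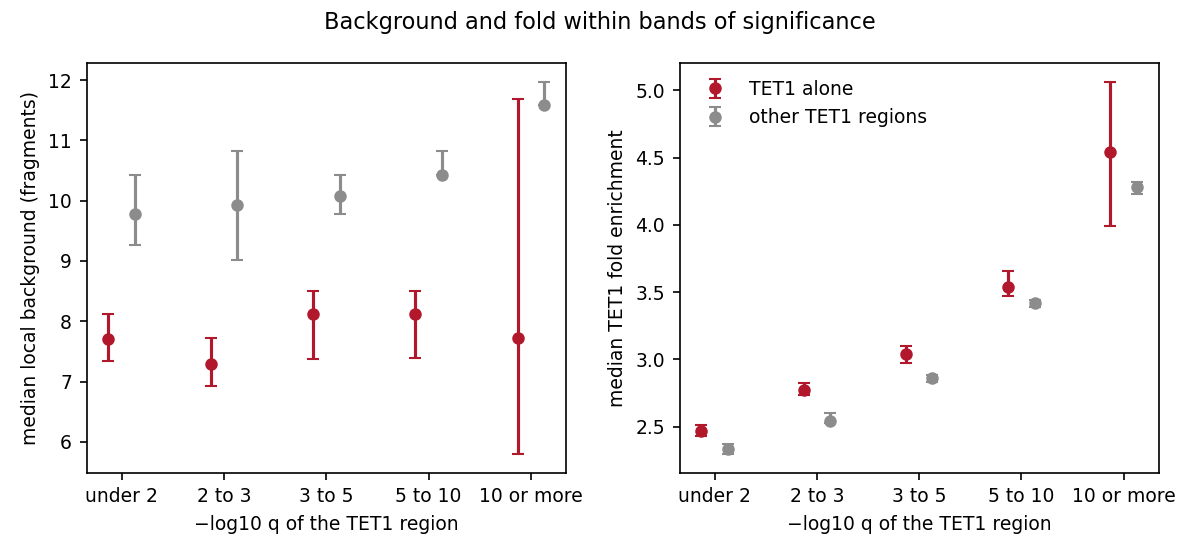
Median local background in fragments (left) and median TET1 fold enrichment (right) in 5 bands of −log10 q, with distribution-free 95% intervals, for regions found alone (red) and the other TET1 regions (grey). Under a −log10 q of 10, regions found alone have the lower background, for example 8.11 against 10.4 fragments from 5 to 10, and the higher fold.

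A lower background was also found for the other antibodies. Regions of MBD2, MBD3 and CTCF found alone in DMSO, chosen by the same rule, numbered 3132, 1140 and 4083. They made up 19.6%, 11.2% and 23.4% of their lists, against 10.2% for TET1. Their median background was 1.59, 1.50 and 1.55 times the floor of their list, and 1.36 times for TET1. In the rest of each list it was 1.92 times for MBD2, 1.91 for MBD3, 1.88 for CTCF and 1.90 for TET1. The median fold of regions found alone was 3.77 for MBD2, 3.02 for MBD3 and 3.64 for CTCF, each under the rest of its list at 4.75, 3.96 and 4.55.

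Detection in the other lists bears on what alone means, since the TET1 list had the highest floor of the 4. The floors of CTCF, MBD2 and MBD3 were 76.5%, 66.4% and 83.1% of it. At regions shared with TET1, the median ratio of local backgrounds was 0.756, 0.662 and 0.833, close to these. The labels give the same 3 DMSO input libraries for all 4 antibodies. With a shared control, both ratios would follow from the same scaling, so their closeness is no separate check. Each region found alone was given the same fold in the other lists, with its background scaled by the floors. It would then pass the least −log10 p of the CTCF list at 523 regions (71.4%, 68.1 to 74.6), of the MBD2 list at 452 (61.7%) and of the MBD3 list at 542 (74.0%). At 448 regions (61.2%, 57.6 to 64.7) it would pass all 3, and at 187 (25.5%, 22.5 to 28.8) none. By this estimate, a fold as large as that of TET1 would not have been listed for any of the other proteins at those 187. Of the 6441 other TET1 regions, treated alike, 96.4% would pass for CTCF, 94.6% for MBD2 and 96.7% for MBD3. These estimates take each fold from the calls that chose the set, with no spread of counts. Folds chosen in this way can run high, so the shares are not rates of detection. The same holds for the estimates of treated lists below. The absence of a region from a list says that no peak was called there, and signal below the call was not measured here.

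Most regions found alone lay more than 10 kb from any region of the other DMSO lists. The rule itself removes every overlap, and distances from other positions of the genome were not taken. The nearest region of CTCF, MBD2 or MBD3 was a median of 30.8 kb away (26.0 to 35.0). The median was 41.0 kb (37.1 to 46.4) to CTCF, 44.4 kb (38.7 to 49.7) to MBD2 and 70.5 kb (59.8 to 80.5) to MBD3, whose list is the shortest of the 3. Within 500 bp of such a region lay 22 regions found alone (3.01%), and within 1 kb 45 (6.15%, 4.63 to 8.13). A further group was closer than 10 kb, which brought the count to 180 (24.6%). For the sets of MBD2, MBD3 and CTCF found alone, the median distance to the nearest region of any other list was 35.7, 32.4 and 37.0 kb. In these, 3.99%, 6.67% and 3.38% lay within 1 kb.

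**Figure D4:**
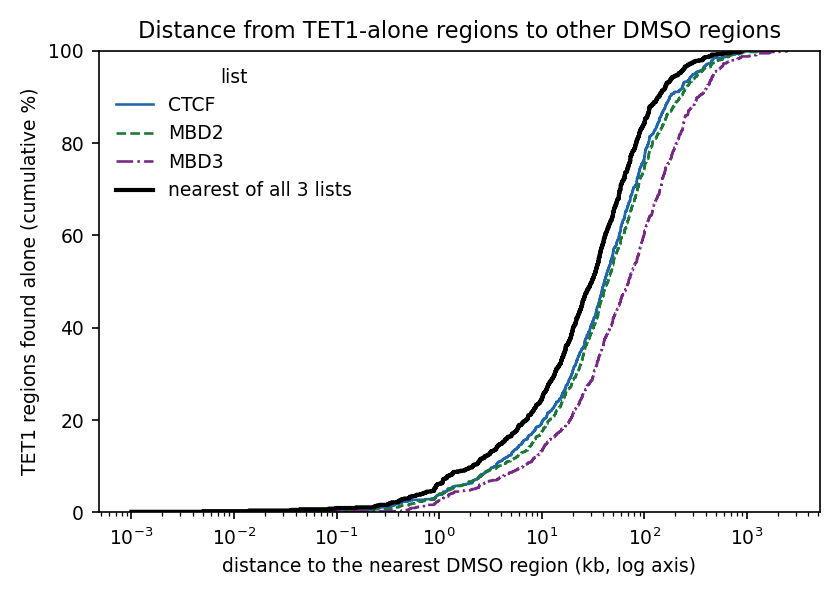
Cumulative share of TET1 regions found alone, in percent, by distance in kb (log axis) to the nearest DMSO region of CTCF, MBD2 or MBD3, and to the nearest of all 3 lists. The curve of all 3 lists reaches 6.15% at 1 kb and 24.6% at 10 kb, and the MBD3 curve runs farthest to the right.

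A handful of regions were alone by a few bases. On chromosome 14, the region from 37304174 to 37304374 (hg19) was 1 bp from an MBD3 region and had a fold of 2.20. A region on chromosome 1 from 223824242 to 223824438 was 5 bp from a CTCF region, at a fold of 2.81. The region on chromosome 4 from 49110709 to 49111037, at a fold of 2.22, was 14 bp from an MBD3 region. Just outside the set, the smallest overlap was 10 bp with a CTCF region, on chromosome 1 from 466703 to 467002 (fold 2.51). Next came 21 bp with an MBD3 region, on chromosome 6 from 107438203 to 107438422 (fold 2.29). The third was 26 bp with a CTCF region, on chromosome X from 71495668 to 71496068 (fold 2.11). Folds of these named regions, on either side of the rule, were alike in size.

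The 45 regions within 1 kb of another list's region more often reached 300 bp than those farther away. A width of 300 bp or more was found for 12 of them (26.7%, 16.0 to 41.0), against 83 of 687 farther away (12.1%, 9.85 to 14.7). In the other TET1 regions the share was 19.3%, inside the interval of the 45. Median widths were 244 bp (212 to 274) for the 45 and 223 bp (220 to 228) farther away, with overlapping intervals. The 45 had a median fold of 2.64 (2.54 to 2.81), against 2.79 (2.74 to 2.84) farther away, again with overlapping intervals. Over the whole set, widths ran from 194 to 652 bp with a median of 223.5 (220 to 228), against 236 (235 to 238) in the other TET1 regions. More than 1 summit was called in 8 regions found alone (1.09%) and in 233 of the others (3.60%). The widest lay on chromosome 6 from 42857670 to 42858321, with a fold of 2.32 and 1 summit. The second-widest, on chromosome 17 from 72510160 to 72510731, had 3 summits and a fold of 2.95. A region on chromosome 22 from 24313846 to 24314358 was 513 bp wide, with 2 summits and a fold of 3.09.

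The strongest regions of the set mostly stood over a background at or near the floor. The highest fold, 6.37, was on chromosome 16 from 85454398 to 85454664, with 47 fragments over a background of 6.54 and a −log10 q of 20.1. It lay 4.13 kb from the nearest MBD2 region and 4.15 kb from the nearest CTCF region. The second, on chromosome 22 from 50468814 to 50469022, had a fold of 5.84 from 38 fragments over 5.68, and was 50.5 kb from any other DMSO region. The third, 86.6 kb from CTCF, lay on chromosome 2 from 156080405 to 156080623 and had a fold of 5.59 over 37 fragments. The region on chromosome 5 from 179061362 to 179061645 rested on the most fragments of these, 57 over 10.0, at a fold of 5.27. On chromosome 19, the region from 14517041 to 14517272 had 33 fragments and a fold of 5.07. The sixth, on chromosome 18 from 61630892 to 61631109, had 32 fragments and a fold of 4.94. It was 15.5 kb from an MBD2 region but 457 kb from any CTCF region. None of these 6 was in a BPK25 or IAA list. Only 4 of all 732 regions found alone (0.546%) were, against 9.85% of all DMSO TET1 regions.

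At the other end, the least significant region lay on chromosome 12 from 12889986 to 12890251, with a −log10 q of 1.30 and 28 fragments over 12.8. A region on chromosome 17 from 47406803 to 47407073, also at 1.30, had 19 fragments over 7.22. These sit at or next to the lowest −log10 q of the TET1 list.

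A few regions stood in wide stretches without CTCF. The region farthest from CTCF was on chromosome 11 from 41453402 to 41453595, 1851 kb from the nearest CTCF region and 709 kb from any other DMSO region. It had a fold of 3.74 from 24 fragments at the floor. Next was chromosome 4 from 118055604 to 118055917, at 899 kb from CTCF and a fold of 2.34. The third, on chromosome 2 from 142897918 to 142898201, was 894 kb from CTCF with a fold of 4.79 from 31 fragments.

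Chromosomes 5 and 13 held more of the set than of the other TET1 regions, and chromosome 19 held less. On chromosome 5 lay 72 regions found alone (9.84%, 7.88 to 12.2), against 382 of the others (5.90%, 5.35 to 6.50). Chromosome 13 held 47 (6.42%, 4.86 to 8.43), against 202 of the others (3.12%, 2.72 to 3.57). On chromosome 19, known for its density of genes and of KRAB zinc finger clusters, were 12 regions found alone (1.64%, 0.940 to 2.84), against 244 of the others (3.77%, 3.33 to 4.26). Among chromosomes 1 to 22 and X, the intervals did not overlap on these 3. Split by significance, those of chromosome 19 did. Its shares were 1.36% (0.690 to 2.66) of regions found alone and 3.05% (2.31 to 4.02) of the others under a −log10 q of 5, and at 5 or more 4 of 143 regions found alone (interval 1.09% to 6.97%) and 196 of 4906 others (interval 3.48% to 4.58%). Chromosome 19 held 2.91% of MBD2, 2.89% of MBD3 and 2.69% of CTCF regions found alone, against 3.68%, 3.78% and 3.63% of their whole lists. Chromosomes 1 to 22 and X held 724 of the 732 regions.

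**Figure D5:**
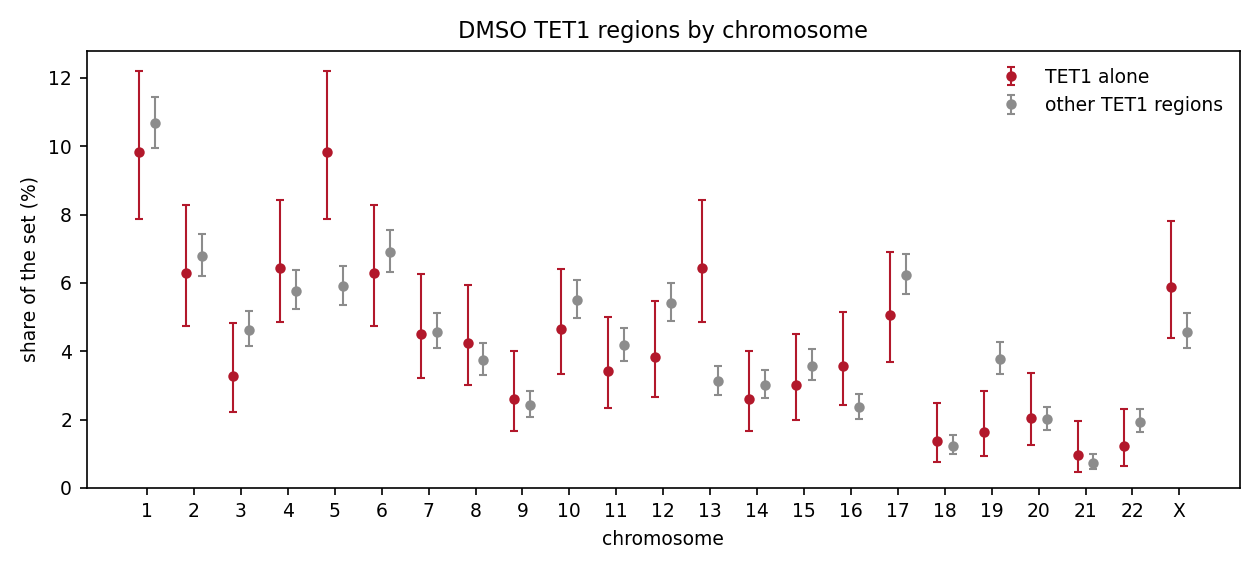
Share of each set by chromosome, in percent, with 95% Wilson intervals, for 732 regions found alone (red) and 6479 other TET1 regions (grey). Chromosome 5 holds 9.84% against 5.90%, chromosome 13 holds 6.42% against 3.12%, and chromosome 19 holds 1.64% against 3.77%.

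The excess on chromosome 5 was found at either level of significance, while that on chromosome 13 was found among weak regions. With a −log10 q of 5 or more, chromosome 5 held 17 of 143 regions found alone (11.9%, 7.56 to 18.2), against 5.99% (5.36 to 6.69) of the others. Under 5 the shares were 9.34% (7.24 to 12.0) for regions found alone and 5.59% (4.56 to 6.84) for the others. Chromosome 13 held 45 of 589 regions found alone under 5 (7.64%, 5.76 to 10.1), against 3.18% (2.42 to 4.17) of the others. At 5 or more it held 2 of 143 regions found alone (1.40%, 0.384 to 4.96), against 3.10% of the others. In the single bands of −log10 q, the intervals of chromosome 13 overlapped throughout. Those of chromosome 5 stayed apart only from 2 to 3 and from 5 to 10. Among regions found alone for the other antibodies, chromosome 5 held 5.68% for MBD2, 6.14% for MBD3 and 5.93% for CTCF, each near the rest of its list at 5.58%, 5.82% and 5.71%. Chromosome 13 held 3.32%, 5.44% (4.27 to 6.91) and 2.99%, against 2.46%, 2.72% and 2.67% in the rest of the lists.

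On chromosome 13, the window from 60 to 70 Mb held 19 regions found alone beside 23 other TET1 regions. No other window of 10 Mb held more than 9 regions found alone, and the median over 307 windows was 2. Without this window, chromosome 13 held 28 of 713 regions found alone (3.93%, 2.73 to 5.62), against 2.77% (2.40 to 3.20) of the others, with overlapping intervals. Backgrounds in the window were raised, with a median of 14.7 fragments for its regions found alone and 21.6 for its other TET1 regions. In 18 of the 19, the background was over 2 times the floor, against 15.6% of the whole set. Their folds ran from 1.75 to 3.28 with a median of 2.23, and none had a −log10 q above 5.06. The same window held 19 MBD2 and 14 MBD3 regions found alone, and 51 CTCF regions. Its MBD3 count was the highest of the 307 windows. The windows from 70 to 80, 80 to 90 and 90 to 100 Mb held 8, 8 and 4 TET1 regions found alone. Their other TET1 regions had raised median backgrounds too, of 16.6, 15.9 and 16.4 fragments. In the remaining windows of chromosome 13 this median was at most 9.27. The part of the raised background in these counts was not tested.

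Over the whole set, neighbouring regions found alone were mostly far apart. The median spacing of neighbours on a chromosome was 2197537 bp, and 10 of 702 neighbouring pairs lay within 10 kb. The closest pair was in the chromosome 13 window, from 68659274 to 68659497 and from 68659911 to 68660114, with 413 bp between them and folds of 2.60 and 2.19.

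Under BPK25, 3 of the 732 regions (0.410%, 0.139 to 1.20) overlapped a TET1 region, against 495 of the other TET1 regions (7.64%, 7.02 to 8.31). Over all DMSO TET1 regions the share was 6.91%. With the 2350 regions of −log10 q of 10 or more set aside, the shares were 0.420% (0.143 to 1.23) of 715 regions found alone and 3.76% (3.22 to 4.39) of 4146 others. From 3 to 10 they were 1 of 299 (0.334%, 0.0591 to 1.87) and 139 of 3542 (3.92%, 3.33 to 4.62). The intervals of both ranges stayed apart. In single bands they did so only from 3 to 5, with 0 of 173 regions found alone (interval up to 2.17%) and 36 of 969 others (3.72%, 2.70 to 5.10). Under 2, for example, 2 of 235 regions found alone (0.851%, 0.234 to 3.05) and 10 of 265 others (3.77%, 2.06 to 6.81) were listed. From 5 to 10 it was 1 of 126 regions found alone (0.794%, 0.140 to 4.36), against 103 of 2573 others (interval 3.31% to 4.83%).

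The BPK25 TET1 list had a lower floor, at 20.4% of that in DMSO. With the same fold and a background scaled by the floors, 43 regions found alone (5.87%, 4.39 to 7.82) would pass the least −log10 p of that list, and 2836 of the others (44.0%). The counts listed were 3 and 495. At the 481 shared regions the median ratio of local backgrounds was 0.174, below the ratio of the floors. Scaled in this way, the median over regions found alone was 6 fragments over a background of 1.58. By this estimate, most of the set would not have been listed there at an equal fold, while fewer were listed than the estimate gives in both sets. The folds used are again those of the calls that chose the set. The part of the lower floor, or of depth, in these counts was not tested.

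The 3 regions also listed for TET1 under BPK25 differed in kind. On chromosome 18, from 28846588 to 28846799, the fold was 6.90 under BPK25 from 20 fragments, and 3.02 in DMSO from 44 fragments over 13.9. This region was 24.3 kb from any other DMSO region. On chromosome 7, the region from 26223540 to 26223923 had a TET1 fold of 4.29 from 10 fragments under BPK25, and 2.43 in DMSO. It was also listed for MBD2 under BPK25, with a fold of 4.88, and lay 247 bp from a DMSO CTCF region. The third, on chromosome 4 from 182083999 to 182084192, had a fold of 4.54 from 9 fragments under BPK25 and 2.35 in DMSO. Folds of lists with unlike floors do not compare. One more region, named after its values were seen, was listed for MBD3 under BPK25 with 6 fragments, on chromosome 7 from 12525030 to 12525406.

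No region found alone was listed for TET1 under IAA (0 of 732, with a Wilson interval up to 0.522%, and 0.410% as the share that 3 counts would give), against 77 of the other TET1 regions (1.19%, 0.952 to 1.48). The share over all DMSO TET1 regions was 1.07%. With backgrounds scaled by the floors, at an equal fold 11 regions found alone (1.50%, 0.841 to 2.67) and 1345 of the others (20.9%, 19.9 to 21.9) would pass the least −log10 p of the IAA list, whose floor rests on 2 regions only. Among TET1 regions with a −log10 q under 10, it was 0 of 715 found alone, with an interval up to 0.534%, and 15 of 4146 others (0.362%, 0.219 to 0.596). These intervals overlap, so no difference could be seen there. Over the 8 treated lists of all antibodies, 4 regions found alone (0.546%, 0.213 to 1.40) were listed at least once, against 706 of the others (10.9%, 10.2 to 11.7) and 9.85% of all DMSO TET1 regions. Under a −log10 q of 10 the shares were 0.559% (0.218 to 1.43) of 715 regions found alone and 5.84% (5.16 to 6.59) of 4146 others. The regions found alone for MBD2, MBD3 and CTCF were rarely listed for their own antibody under BPK25 as well, at 0.287%, 0.0877% and 0.392%, against 1.73%, 1.91% and 1.54% of the rest of their lists.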

How the data were processed

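The values come from 12 deposited peak lists, 1 per antibody and treatment, called by the authors on pooled replicates. Per the submitters' processing notes, the tools included Bowtie2 2.3.4 and MACS2 2.1.2, with build hg19. The caller's settings were not stated. The deposited lists give a fold (a linear ratio), −log10 p and −log10 q per peak, a score that restates −log10 q, and the summit. Sub-peaks of 1 region were merged, with the values of largest −log10 p. Pileup and background were solved from fold, read as pileup plus 1 over background plus 1, and −log10 p, read as a Poisson tail, within 0.02% and up to a −log10 p of 150. The solving and the calls of overlap were checked on simulated data. Distances were checked only as overlapping or touching against apart. Lengths of distances and overlaps, and the merging, were not checked. The simulated folds and p-values followed the same formulas, so this check cannot tell whether the deposited values do. It did not reach the highest −log10 p and backgrounds solved here.

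Named regions, on chromosomes 1 to 22 and X, are the 6 of highest fold, 2 of lowest −log10 q, 3 widest, 3 farthest from CTCF, 3 nearest either side of the rule, and those also listed for TET1 under a treatment. The set and lists were chosen with earlier results of these data known. Gene lists and motifs planned for the regions were not run, since an hg19 genome and annotation were not used here. The lists give no depth for any library. Python 3.11.15 and SciPy 1.17.1 were used.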

Additional observations from a re-analysis of the deposited data

How the results depend on the processing

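The number found alone depended most on the threshold. It was 143 with a −log10 q of 5 or more in the TET1 list (2.83% of the list, median fold 3.65, median width 215 bp, 1.40% on chromosome 13). With that threshold in all lists it was 195 (3.86%, fold 3.62, 52.8 kb to CTCF, 2.05% on chromosome 13). Absence from CTCF alone gave 1289 (17.9%, fold 2.92, 4.27% on chromosome 13, 7.84% on chromosome 5, 1.55% in any treated list). Summits within 150 bp gave 864 (12.0% of the list, width 231 bp, 32.2 kb to CTCF, 2.55% in any treated list). The 143 are the regions of the set with a −log10 q of 5 or more, so their lower number follows from the cut. Absence from CTCF alone drops the conditions on MBD2 and MBD3, and can only add regions. For the other shifts, the cause was not tested. Overlap of 50% of the shorter region, a gap of 500 bp, and chromosomes 1 to 22 and X gave 760, 710 and 724 regions. Under those 3, each other value in this paragraph stayed inside its interval. Shares listed for TET1 under BPK25 and IAA stayed inside theirs under all 7 alternatives. Shares on chromosomes 5 and 13 were added after seeing the data.

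No paired analysis was possible because the lists pool replicates 1 to 3, and leaving out a replicate was not run for the same reason. The settings meant for gene starts and sequence were not run, as no hg19 annotation was used here. Regions found alone rested on few fragments, with a median of 25, which limits the precision of each.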
